A study of Mus musculus with 2 samples.

Results

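The genes described here encode parts of the centrosome and of the cilium. They are the rows of the deposited tables whose symbol starts with Cep (centrosomal protein), Ift (intraflagellar transport) or Bbs (Bardet-Biedl syndrome) followed by a digit. The rule found 58 of 23282 rows, with 36 Cep genes, 14 Ift genes and 8 Bbs genes. In the GENCODE M21 annotation of GRCm38, which is the assembly called mm10 that the submitters' processing notes name, 57 of the 58 are protein-coding genes and Cep83os is a long noncoding RNA.

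Naïve CD4+ T cells from the spleens of wild-type female C57BL/6 mice aged 7–10 weeks were activated with antibodies to CD3ε and CD28 and turned towards induced regulatory T (iTreg) cells with IL-2, TGF-β1 and antibodies that block IL-4 and IFN-γ. The control culture received DMSO, and the other culture received 10 μM Tubastatin A (abbreviated TSA; an inhibitor of HDAC6, the deacetylase of α-tubulin). RNA was taken on day 1 and sequenced from the 3′ end of polyadenylated transcripts. There was 1 library per condition, so no difference below has a replicate check, no p-value can be given, and TSA cannot be told apart from any other difference between the 2 cultures or library preparations.

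The centrosome is a pair of centrioles with a surrounding protein matrix, and it organizes the microtubules of interphase cells and the poles of the mitotic spindle. In many cell types the older centriole docks at the membrane and grows a cilium, which is built by intraflagellar transport trains (the IFT-A and IFT-B complexes, encoded largely by Ift genes) and whose membrane proteins are moved by the BBSome, a coat-like complex of Bbs proteins. Lymphocytes are known for lacking a primary cilium, yet they contain many of these proteins, and IFT20 is known to serve the traffic of T cell receptors to the immune synapse. Centrioles are copied once per cell cycle, and several Cep proteins act in that copying or in the separation of daughter cells.

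The control library held 10846023 reads on genes and the TSA library 10432213. Each deposited value is log2 of a normalized count plus 1, and the log2 fold change is the difference of the deposited values, TSA minus control. Reads were recovered from the values, a gene was compared where either library held 10 reads or more, and it was counted as changed past 2-fold. Each 95% interval is an exact Clopper-Pearson interval of the fold (TSA over control) on the reads of these 2 libraries, and covers counting error only. All 10 listed T cell markers were read well, with 22253 control reads and 24335 TSA reads, against 12 and 15 reads of 5 B cell markers (Pax5 at 0 in each), 88 and 74 of 9 myeloid markers, 30 and 43 of 4 NK cell markers (Klrb1c at 0 in each), 80 and 87 of 2 CD8 T cell markers and 43 and 58 of 5 erythroid markers. Of these marker genes, Cd79b (11 and 4 reads) and Hbb-bs (4 and 17 reads) passed 2-fold. Hdac6, which encodes the target of TSA, had 146 and 166 reads (fold 1.13, 95% interval 0.896 to 1.42), Foxp3 had 1633 and 965 reads, and Mki67, the gene of the proliferation antigen Ki-67, had 1861 and 653 reads.

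Of the 58 genes, 54 had enough reads to be compared: 34 Cep, 14 Ift and 6 Bbs genes. The other 4 were Cep112 (0 control reads and 5 TSA reads), Cep126 (1 and 0), Bbs5 (4 and 7) and Bbs7 (5 and 9), and a difference in them was not detectable at this depth. The 54 split nearly evenly by direction, with 26 higher and 28 lower in the TSA library, and their median log2 fold change was -0.021, against 0.015 over all 12164 genes compared. Past 2-fold there were 3 higher genes (Cep131, Bbs1 and Ift81) and 3 lower genes (Cep55, Cep76 and Cep89). The 3 higher genes are 5.56% of the 54, against 11.5% of all genes compared, and the 3 lower genes are also 5.56%, against 3.15% of all genes. In either direction 14.7% of all genes passed 2-fold. With total-read scaling Bbs10 and Bbs12 joined the higher genes and Cep76 left the lower genes, which made 5 higher and 2 lower. With a mean normalized count of 50 or more required, Cep131 alone stayed among the higher genes, beside the same 3 lower genes. With the whole 95% interval required to lie beyond 2-fold, 1 higher gene (Cep131) and 0 lower genes were left. Ift81 entered the comparison through the TSA library alone, and was no longer past 2-fold with a pseudocount of 5 or with 10 reads required in both libraries, each of which left 2 higher genes.

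**Figure D1:**
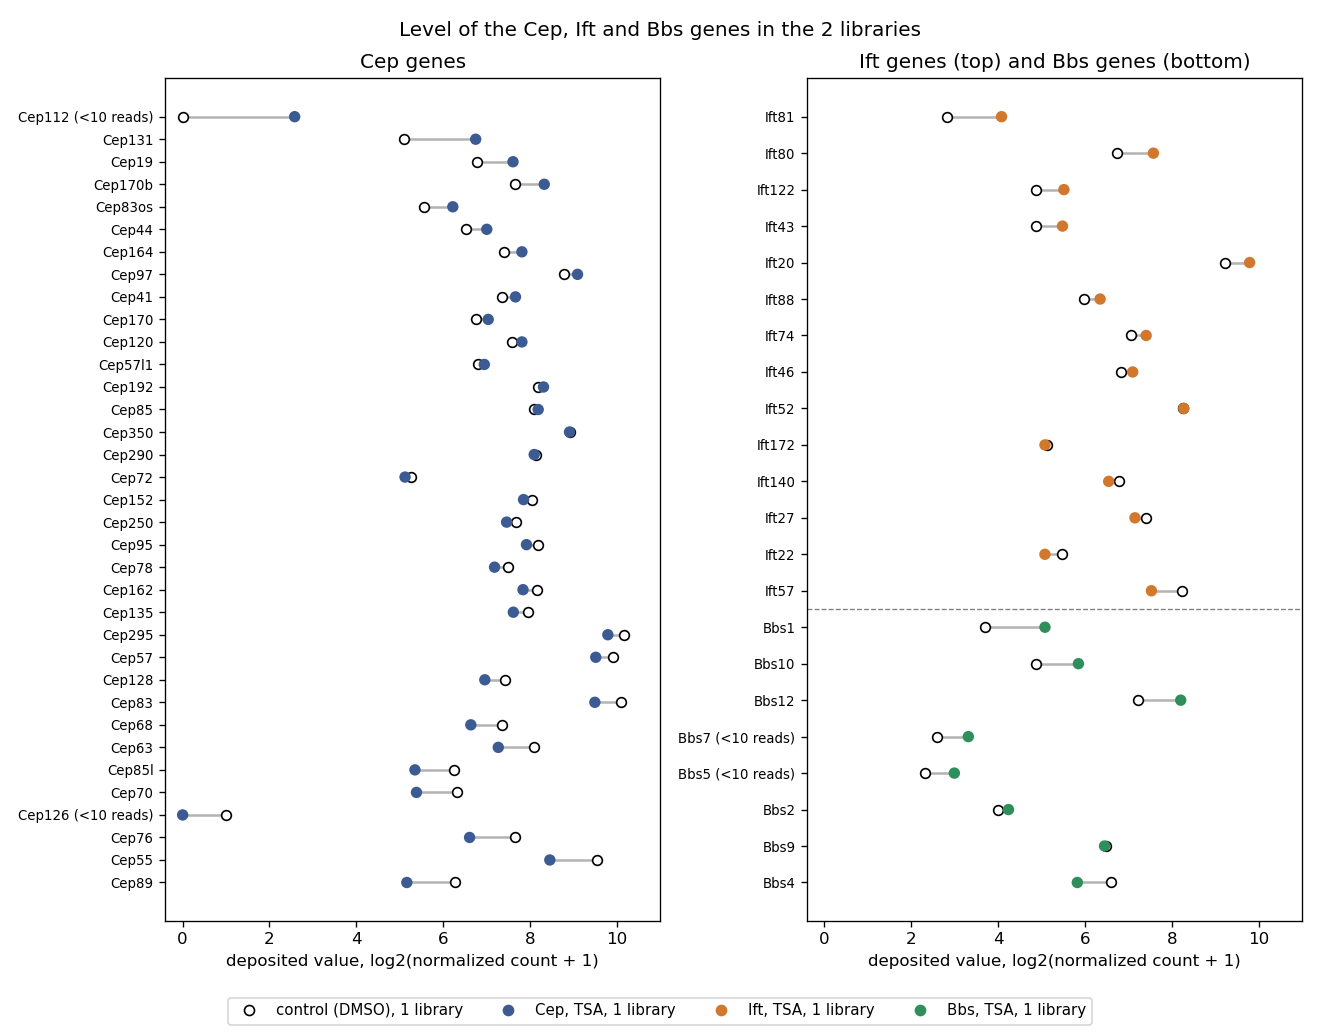
Deposited level, log2(normalized count + 1), of the Cep, Ift and Bbs genes in the control library (open circles) and the TSA library (filled circles), with 1 library per condition and the genes of a family ordered by their change. The circles of Cep131, Bbs1 and Ift81 lie over 1 unit further right in the TSA library, and those of Cep55, Cep76 and Cep89 over 1 unit further left.

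The 3 families differed in their middle values. The median log2 fold change was -0.21 for the Cep genes, 0.32 for the Ift genes and 0.61 for the Bbs genes, and the ranges overlapped widely, from -1.11 to 1.65 (Cep), from -0.71 to 1.27 (Ift) and from -0.78 to 1.37 (Bbs). Of the 34 Cep genes 21 were lower, whereas 9 of the 14 Ift genes and 4 of the 6 Bbs genes were higher. The median of the Ift genes lay 0.52 above that of the Cep genes, and 27 of the 34 Cep genes were below it. The median of the Bbs genes lay 0.81 above that of the Cep genes and 0.29 above that of the Ift genes, on 6 genes. This order rests on few genes: with a mean normalized count of 50 or more required, 3 Bbs genes remained and their median was -0.031, and without Bbs12 the median of the Bbs genes was 0.23, below that of the Ift genes.

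Summed over each family, the Cep genes had 9566 control reads and 8259 TSA reads, a fold of 0.855 (95% interval 0.83 to 0.881). The Ift genes had 2025 and 2372 reads, a fold of 1.16 (1.09 to 1.23), and the Bbs genes had 387 and 547 reads, a fold of 1.40 (1.23 to 1.60). Summed over all genes compared, the fold was 0.952 (0.951 to 0.953), and the family folds stand beside that value. The sums of the smaller families rested on 1 gene each. Ift20 held 29.3% of the Ift reads of the control library, and without it the fold was 1.02 (0.952 to 1.102). Bbs12 held 38.2% of the Bbs reads, and without it the fold was 1.04 (0.868 to 1.25). The Cep sum did not hang on its most abundant gene in this way, as the fold was 0.867 without Cep295.

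Level moved with the change over the whole table, so the families were also read within classes of level. The median log2 fold change of all genes compared was 0.46 where the mean normalized count of the libraries was under 100, and -0.058 from 100 on. Of the Cep genes 27 of 34 were in the higher class, of the Ift genes 8 of 14, and of the Bbs genes 1 of 6. In the higher class the medians were -0.20 for the 27 Cep genes and 0.14 for the 8 Ift genes. In the lower class they were -0.80 for 7 Cep genes, 0.49 for 6 Ift genes and 0.23 for 5 Bbs genes. The lower class holds genes that entered through the TSA library alone, Ift81 among them. With 10 reads or more required in both libraries its medians were 0.225 for all genes, -0.80 for 7 Cep genes, 0.37 for 5 Ift genes and 0.23 for 5 Bbs genes. The medians of the Cep genes thus lay below those of all genes in both classes and under both filters. In the lower class the Ift median lay above that of all genes under both filters. The Bbs median lay below that of all genes under the first filter and just above it under the second. These Ift and Bbs medians rest on 5 or 6 genes.

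A change beyond counting error means here a 95% interval that excludes 1. Over all levels 15 of the 34 Cep genes had an interval below 1 and 8 above it, against 28% and 28.1% of all genes compared. In the class from 100 on, 11 of 27 Cep genes (40.7%) were below 1 and 6 (22.2%) above, close to the 36.5% and 23.4% of all genes of that class. The larger share of lower Cep genes over all levels was thus close to the background once level was matched from 100 on. Of the 7 Cep genes in the class under 100, 4 were below 1 and 2 above, where all genes of that class gave 10.5% and 37.7%. Of the 14 Ift genes 3 were above 1 (21.4%) and 1 below, and of the 6 Bbs genes 3 were above and 1 below. From 100 on, 3 of 8 Ift genes (37.5%) were above 1 and 1 (12.5%) below. Under 100, 0 of 6 Ift genes were above or below. Of the 5 Bbs genes under 100, 2 (40%) were above 1 and 1 (20%) below. Past 2-fold, 2 members of the higher class (Cep55 and Cep76) were lower, 5.56% of 36, against 1.31% of all genes of the class, and no member was higher, against 1.48%. In the class under 100, 3 of 18 members (16.7%) were higher, against 32.2%, and 1 was lower (5.56%), against 6.94%. Of all genes of that class with 10 reads or more in both libraries, 14.8% were higher and 4.26% lower past 2-fold, and 26.6% had an interval above 1 and 10.99% below.

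**Figure D2:**
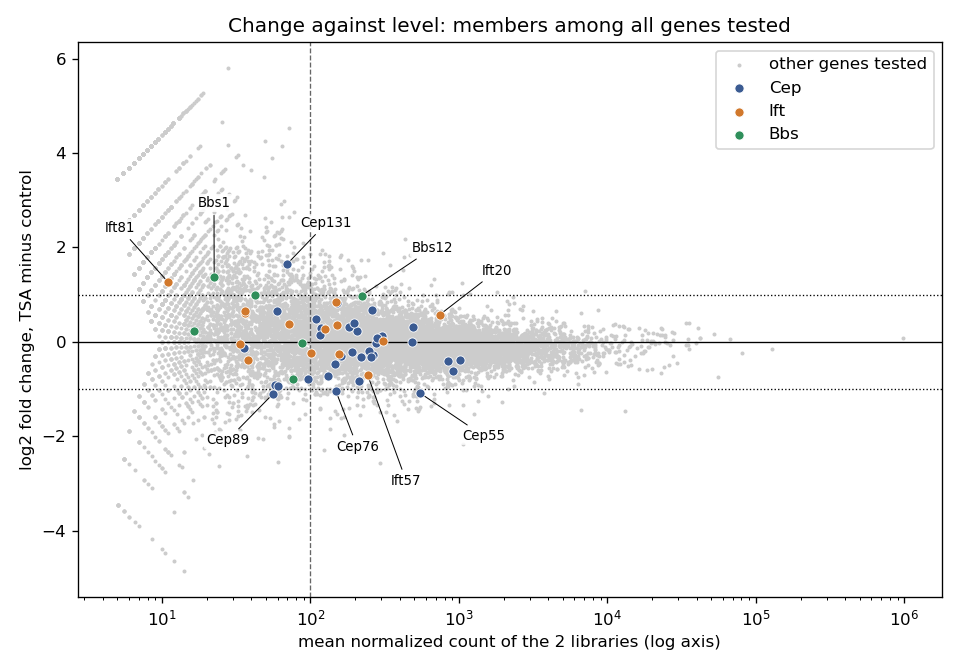
Log2 fold change (TSA minus control) against the mean normalized count of the 2 libraries, on a log axis, for all 12164 genes compared (grey) and for the Cep, Ift and Bbs genes (coloured); dotted lines mark 2-fold and the dashed line a count of 100. Ift81 and Bbs1 lie at low counts where grey points spread widely, while Cep55, Cep76 and Bbs12 lie at the edge of a narrower spread.

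Among the Cep genes, Cep131 was higher by the largest amount. It encodes a protein of the centriolar satellites, the granules that surround the centrosome and cilium base. It had 33 control reads and 107 TSA reads, deposited values of 5.10 and 6.75 and a fold of 3.14 (95% interval 2.16 to 4.90), the only member whose whole interval lay beyond 2-fold. It lies on chromosome 11 from 120064430 to 120086827 on the minus strand. The other genes described here that act at the cilium base had smaller changes in both directions. Cep41, which takes part in tubulin glutamylation in cilia, had 162 and 203 reads (fold 1.24, interval 1.004 to 1.54), and Cep290, a transition zone protein, had 278 and 274 reads (fold 0.976). Cep162, which helps to set up the transition zone, had 284 and 229 reads (fold 0.799, 0.668 to 0.954).

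Cep55 was lower with the most reads behind it among the genes past 2-fold. Its product recruits the ESCRT machinery to the midbody, where daughter cells are cut apart. It had 742 control reads and 352 TSA reads, deposited values of 9.54 and 8.46 and a fold of 0.470 (0.413 to 0.534). It lies on chromosome 19 from 38055011 to 38074423 on the plus strand. Of its ESCRT partners, Tsg101 had 466 and 428 reads and Pdcd6ip (ALIX) 928 and 1097 reads. Of 16 genes of mitotic kinases, the spindle and abscission, listed for comparison, 12 (75%) had an interval below 1 and 1 (6.25%) above, against 36.5% and 23.4% of all genes with a mean normalized count from 100 on, the class of 15 of the 16, and their median log2 fold change was -0.83. In bulk RNA, fewer dividing cells and less RNA per cell cannot be told apart, and the part of cell division in the change of Cep55 was not tested.

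Cep76 and Cep89 were the other lower genes past 2-fold. Cep76, which keeps centrioles from being copied again within a cycle, had 199 and 97 reads (fold 0.485, 0.375 to 0.618). Cep89, a protein of the distal appendages that dock the older centriole to the membrane, had 76 and 35 reads (fold 0.463, 0.296 to 0.689), and lies on chromosome 7 from 35397035 to 35438689 on the plus strand. Just short of 2-fold were Cep70, a binder of γ-tubulin, with 79 and 41 reads (log2 fold change -0.94), and Cep85l with 75 and 40 reads (-0.91).

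The promoters of these genes were taken from a RefSeq table of GRCm38.p6, which gave windows of 300 bases for 50 of the 58 genes. Among those with no entry were Cep76, Cep120, Cep192, Cep350, Ift80, Ift81 and Ift122. The windows of 4 genes that passed 2-fold are printed to show where the motifs searched for stand in genes with large changes: Cep131 and Bbs1, higher with TSA, and Cep55 and Cep89, lower with TSA. Capitals mark matches on either strand to the CCAAT box (CCAAT), to the core of the X-box bound by RFX factors (GTTGCC), and to the CHR, a promoter element of cell cycle genes (TTTGAA or TTCGAA, read as TTCAAA or TTCGAA on the other strand). E2F sites (TTCCCGC or TTGGCGC) were searched too and had no match in these windows. The windows are chr11:120086778-120087077 on the minus strand for Cep131, chr19:4906578-4906877 on the minus strand for Bbs1, chr19:38054791-38055090 on the plus strand for the later of 2 annotated starts of Cep55, and chr7:35396813-35397112 on the plus strand for Cep89.
Cep131: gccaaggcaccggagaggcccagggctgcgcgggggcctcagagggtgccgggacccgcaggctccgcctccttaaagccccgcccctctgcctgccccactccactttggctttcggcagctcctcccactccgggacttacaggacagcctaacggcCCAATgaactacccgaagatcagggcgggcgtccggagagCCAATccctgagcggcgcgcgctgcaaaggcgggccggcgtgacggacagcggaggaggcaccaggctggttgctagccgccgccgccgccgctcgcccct
Bbs1: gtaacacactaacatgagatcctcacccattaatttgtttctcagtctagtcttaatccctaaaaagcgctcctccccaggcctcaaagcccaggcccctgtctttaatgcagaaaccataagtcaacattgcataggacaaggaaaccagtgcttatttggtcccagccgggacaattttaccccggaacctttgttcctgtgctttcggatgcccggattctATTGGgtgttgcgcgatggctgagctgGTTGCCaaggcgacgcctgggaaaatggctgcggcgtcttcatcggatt
Cep55: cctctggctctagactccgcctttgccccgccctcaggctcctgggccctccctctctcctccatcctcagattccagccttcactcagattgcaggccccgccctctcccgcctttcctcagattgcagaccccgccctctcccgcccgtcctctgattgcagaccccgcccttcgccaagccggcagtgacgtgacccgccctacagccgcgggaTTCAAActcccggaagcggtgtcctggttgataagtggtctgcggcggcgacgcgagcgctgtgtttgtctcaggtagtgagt
Cep89: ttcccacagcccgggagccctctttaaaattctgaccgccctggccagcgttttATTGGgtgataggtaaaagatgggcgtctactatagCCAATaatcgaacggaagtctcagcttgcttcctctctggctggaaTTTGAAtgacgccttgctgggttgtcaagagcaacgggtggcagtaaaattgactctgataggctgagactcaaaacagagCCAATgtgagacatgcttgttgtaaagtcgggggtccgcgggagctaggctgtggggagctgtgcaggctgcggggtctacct

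A CHR match stood in the windows of 10 of 31 Cep genes (32.3%), Cep55 and Cep89 among them, and in none of 11 Ift and 8 Bbs genes, against 16.2% of the 9196 genes compared here that have a window and 21.7% of all 27025 genes of the promoter table. An X-box core, as in Bbs1, stood in 8 of 31 Cep genes (25.8%), 5 of 11 Ift genes (45.5%) and 3 of 8 Bbs genes (37.5%), against 14.6% of the genes compared and 14.1% of all genes. For the E2F site the counts were 9 Cep genes, 2 Ift genes and 0 Bbs genes, against 14.3% of the genes compared and 7.79% of all genes. For the CCAAT box they were 15 Cep genes, 8 Ift genes and 3 Bbs genes, against 43.1% and 41.1%. The family counts include genes with too few reads to be compared. These are Bbs5 and Bbs7 (X-box core), Cep112 (CHR, X-box core and E2F site) and Cep126 (CCAAT box). Of the Bbs genes compared, only Bbs1 held an X-box core. Families of 11 and 8 windows are small for such shares, and differences between the families were not tested. Of the Cep genes that were lower beyond counting error the CHR stood in Cep55, Cep89, Cep162 and Cep295, and Cep164, which was higher, held it too. Genes with an X-box core were found on both sides, with Bbs1, Cep19, Cep41, Cep97, Cep164 and Cep170b higher and Ift57, Cep57 and Cep128 lower beyond counting error. A match of letters is a description and not a site, and no match says only that these letters are not in the window.

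The largest group of Cep genes acts in the copying and growth of centrioles. Of its 14 genes 2 (14.3%) had an interval above 1 and 5 (35.7%) below, against 23.4% and 36.5% of all genes with a mean normalized count from 100 on, the class of all 14, with a median log2 fold change of -0.11. Cep63, which with Cep152 and Cep57 recruits the copying kinase PLK4, had 272 control reads and 154 TSA reads (fold 0.562, 0.457 to 0.686). Its partner Cep57 had 963 and 734 reads (fold 0.755, 0.685 to 0.832), and Cep152 had 263 and 231 reads (fold 0.871, 0.726 to 1.04). The interval of Cep63 lay below that of Cep152 and overlapped that of Cep57 at its edge.

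The other 2 lower genes of the group besides Cep76 were Cep295 and Cep135, which build and lengthen centrioles. Cep295, the Cep gene with the most reads, had 1148 and 890 reads (fold 0.768, 0.703 to 0.839), and Cep135 had 244 and 196 (fold 0.796, 0.656 to 0.964). The 2 higher genes were Cep97, which caps the growing end of the centriole, with 435 and 548 reads (fold 1.25, 1.098 to 1.42), and Cep44 with 90 and 128 reads (fold 1.40, 1.07 to 1.87). For the other 7 genes of the group, Cep57l1, Cep78, Cep85, Cep120, Cep152, Cep192 and Cep350, the interval held 1, and Cep350, with 481 and 482 reads, was the most even.

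The appendages of the older centriole gave changes both ways. Of 7 genes 3 (42.9%) had an interval above 1 and 3 below, against 23.4% and 36.5% of all genes from a count of 100 on, the class of 6 of the 7. Cep19 (109 and 195 reads, fold 1.76, 1.39 to 2.26), Cep170b (200 and 322 reads, fold 1.59, 1.33 to 1.91) and Cep164 (168 and 225 reads, fold 1.32, 1.08 to 1.63) were higher. Cep83 (1094 and 723 reads, fold 0.655, 0.595 to 0.720) and Cep128 (170 and 124 reads, fold 0.724, 0.568 to 0.916) were lower, beside Cep89. Cep83, Cep89 and Cep164 all encode distal appendage proteins, so the parts of this structure did not share a direction.

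Cep83 and Cep83os start 78 bases apart on chromosome 10 and run away from each other. Cep83os, the noncoding transcript, had 46 control reads and 74 TSA reads (fold 1.58, 1.09 to 2.35), so this pair moved in opposite directions with intervals that do not overlap. Among related Cep genes, Cep85l (fold 0.534, 0.350 to 0.785) and Cep85 (272 and 292 reads, fold 1.06, 0.898 to 1.26) did not overlap in their intervals, nor did Cep57 and Cep57l1 (110 and 123 reads, fold 1.11, 0.849 to 1.45). Cep170 (106 and 131 reads, fold 1.22, 0.94 to 1.60) and Cep170b overlapped. How reads shared by related genes were counted is not given in the sources used here.

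The linker that holds the centriole pair together was represented by Cep68, with 163 and 99 reads (fold 0.604, 0.464 to 0.777), and Cep250, with 202 and 176 reads (fold 0.864, 0.701 to 1.06). Cep95, lower beyond counting error, had 289 and 242 reads (fold 0.830, 0.696 to 0.987). Cep72, with 37 and 34 reads, did not differ beyond counting error.

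**Figure D3:**
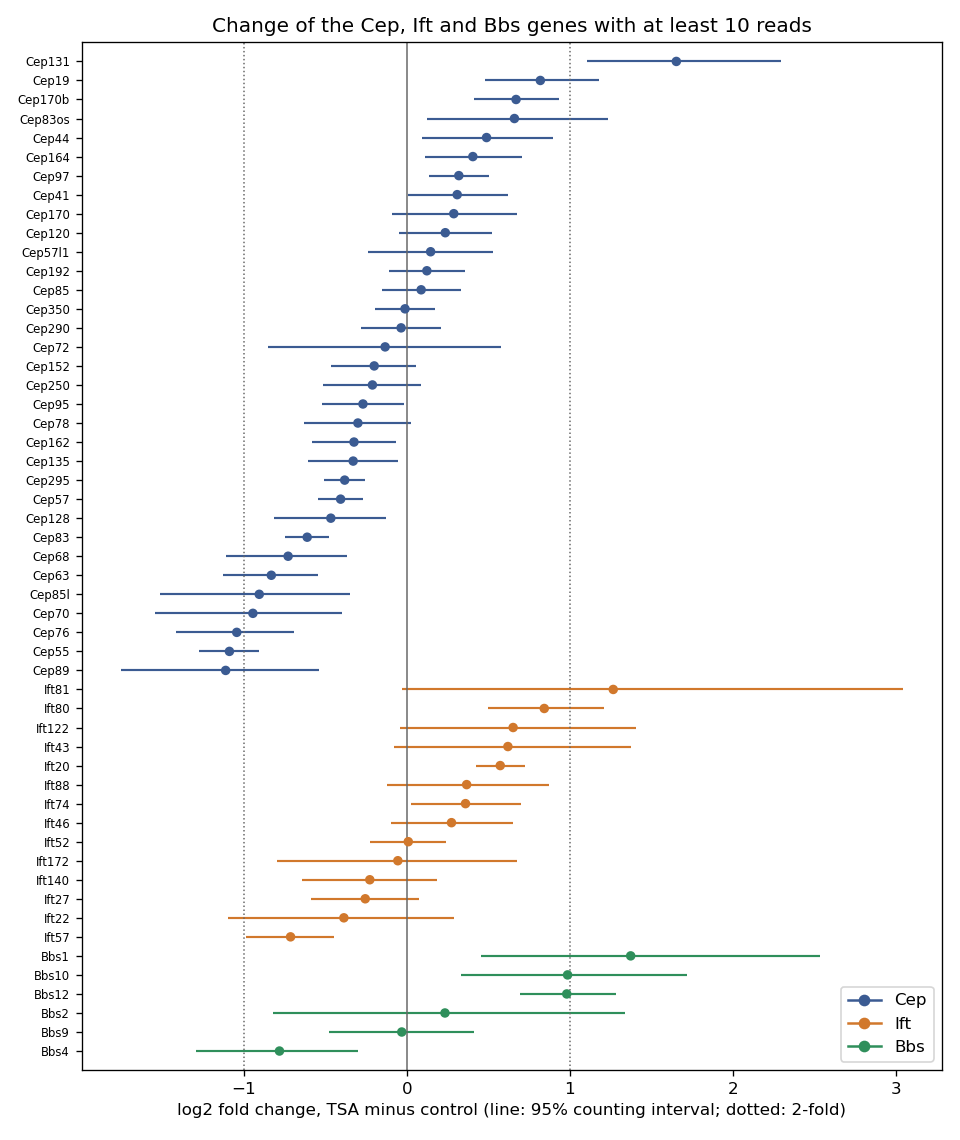
Log2 fold change (TSA minus control, points) of the Cep, Ift and Bbs genes with enough reads, by family and in order of change, with exact 95% intervals for counting error (lines); dotted lines mark 2-fold. Cep131 alone has its whole interval beyond 2-fold, and the long line of Ift81 crosses 0.

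Among the Ift genes, 3 of 14 (21.4%) had an interval above 1 and 1 (7.14%) below, against 28.1% and 28% of all genes compared. All 4 were among the 8 Ift genes with a mean normalized count from 100 on. There they made 37.5% above and 12.5% below, against 23.4% and 36.5% of all genes of that class. The 4 genes are among the 11 here that encode subunits of the IFT-B complex, which carries cargo outward along the cilium. Ift20 had 593 control reads and 891 TSA reads, deposited values of 9.22 and 9.79 and a fold of 1.49 (1.34 to 1.65). It had by far the most reads of the Ift genes in both libraries, and a 3′ assay counts transcript ends without regard to length. It lies on chromosome 11 from 78536361 to 78541737 on the plus strand.

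Ift80 had 105 and 191 reads (fold 1.79, 1.41 to 2.31), and Ift74 had 131 and 170 reads (fold 1.28, 1.02 to 1.63). Ift57 went the other way, with 301 and 185 reads (fold 0.610, 0.504 to 0.733). Ift20, Ift57 and Ift80 belong to the same peripheral part of IFT-B (IFT-B2), so genes of the same subcomplex lay on both sides. Its remaining member here, Ift172, had 34 and 33 reads (fold 0.963, 0.577 to 1.60).

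In the core of IFT-B (IFT-B1) the levels were mostly even. Ift52 had 306 and 311 reads (fold 1.01, 0.857 to 1.18), Ift46 had 112 and 137 (fold 1.21, 0.937 to 1.57) and Ift88 had 62 and 81 (fold 1.29, 0.918 to 1.83). Ift27, a small GTPase that links the train to the BBSome, had 168 and 142 reads (fold 0.838, 0.665 to 1.05), and Ift22 had 43 and 33 (fold 0.765, 0.468 to 1.22). Ift81, which binds tubulin together with Ift74, passed 2-fold on 6 and 16 reads (fold 2.40), but its interval of 0.981 to 8.24 held 1. The genes of IFT-A, the complex for return transport, did not differ beyond counting error, with 28 and 45 reads for Ift122 (fold 1.57, 0.971 to 2.65), 28 and 44 for Ift43 (fold 1.54, 0.947 to 2.60) and 108 and 93 for Ift140 (fold 0.854, 0.639 to 1.14).

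Among the Bbs genes, Bbs10 and Bbs12 encode chaperonin-like proteins that assemble the BBSome, and both were close to 2-fold higher. Bbs12 had 148 control reads and 296 TSA reads, deposited values of 7.23 and 8.21 and a fold of 1.97 (1.62 to 2.43), and it lies on chromosome 3 from 37312554 to 37321453 on the plus strand. Bbs10 had 28 and 57 reads (fold 1.98, 1.26 to 3.29). Summed, the chaperonin pair had 176 and 353 reads (fold 1.99, 1.65 to 2.39). Mkks, another chaperonin-like gene of this group under a different symbol, had 360 and 371 reads (fold 1.02, 0.88 to 1.18), so it did not share the values of Bbs10 and Bbs12.

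The 4 BBSome subunits with enough reads had 211 and 194 reads in sum (fold 0.910, 0.745 to 1.11), and their own changes pointed both ways. Bbs1 had 12 and 33 reads (fold 2.59, 1.37 to 5.79), and lies on chromosome 19 from 4886878 to 4906628 on the minus strand. Bbs4 had 96 and 56 reads (fold 0.582, 0.408 to 0.811). Bbs9, with 88 and 87 reads (fold 0.979, 0.719 to 1.33), and Bbs2, with 15 and 18 reads (fold 1.18, 0.566 to 2.53), did not differ beyond counting error.

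Some of these genes share exon bases with another gene of the table on the opposite strand, and whether the counting used strand is not given in the sources used here. For Cep295 the overlap with Taf1d (4385 and 3408 reads) covers 77 of its last 500 bases, where the assay reads. For the others the last 500 bases were free of the partner: Bbs4 overlaps Adpgk (478 and 375 reads), Cep63 overlaps Anapc13 (414 and 553 reads), Bbs12 overlaps Cetn4 (22 and 34 reads), Cep290 overlaps 4930430F08Rik (157 and 190 reads), Cep85l overlaps Pln (3 and 0 reads) and Cep250 overlaps 6430550D23Rik (4 and 3 reads).

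Subunits of the same complexes under other symbols were listed for comparison. Of 10 listed IFT subunits 8 had enough reads, with 4 higher and 4 lower and a median log2 fold change of -0.028. Among them Ttc26 (IFT56) passed 2-fold downwards, with 20 and 3 reads (log2 fold change -2.41), and without it the median of the genes with 10 reads or more in both libraries was 0.054. Of 5 listed Bbs genes with other names 4 had enough reads, none passed 2-fold, and their median was -0.0085. Both medians lay close to that of all genes compared, and below those of the Ift and Bbs genes.

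Other parts of the cilium and centrosome were mostly near the median of all genes, and their counts past 2-fold stand beside 11.5% higher and 3.15% lower among all genes compared. None of 15 centriole duplication genes passed 2-fold, and their median was -0.083. Of their intervals 2 (13.3%) were above 1 and 3 (20%) below. Of all genes from a count of 100 on, the class of most of the 15, it was 23.4% and 36.5%. Of 18 genes of the pericentriolar material 1 was higher past 2-fold, Tubg2 (17 and 37 reads), and 1 was lower, the centrosome-splitting kinase gene Nek2 (85 and 33 reads), with a median of -0.12 and 7 intervals below 1 (38.9%), near the 36.5% of all genes with a mean normalized count from 100 on, the class of 14 of the 18. Of 16 transition zone genes 1 passed 2-fold, Tmem67 (27 and 58 reads), with a median of 0.16. Of 8 cilium motor genes 1 passed 2-fold, the dynein-2 light chain gene Tctex1d2 (20 and 73 reads, fold 3.49, 2.18 to 6.26), with a median of 0.0005.

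Of 10 genes for GTPases of the ciliary membrane 6 (60%) had an interval above 1 and 2 (20%) below. Of all genes from a count of 100 on, the class of most of the 10, it was 23.4% and 36.5%. The median of the GTPase genes was 0.33, and Rab34 (42 and 239 reads) passed 2-fold. Of 8 genes for RFX factors, 4 had 10 reads or more in both libraries. Of those 4, 2 had an interval above 1, against 23.4% of all genes from a count of 100 on, the class of Rfx1, Rfx5 and Rfx7. Their median was 0.19, against -0.058 for that class. Rfx4 and Rfx2 entered the comparison through the TSA library alone, and with them the median of the RFX genes was 0.43. They were read at or near 0 in the control library. Rfx4 had 0 and 13 reads, 4.29-fold higher with the control set to a floor of 3 reads (lower limit of the interval 3.02). Rfx2 had 2 and 16 reads (interval 1.86 to 71.0). Of 27 measured axoneme genes of motile cilia, 7 had 10 reads or more in both libraries, and 9 had no read in either library. Of the 7, 3 had an interval above 1 and none below, with a median of 0.49. Most of the 7 had a mean normalized count under 100. Of all genes of that class with such reads, 26.6% were above 1 and 10.99% below, with a median of 0.225. Dnah6, Rsph1 and Hydin entered through the TSA library alone, and with them the median of the axoneme genes was 0.67. Dnah6 (0 and 14 reads) was 4.62-fold higher against the same floor (lower limit of the interval 3.28). Rsph1 and Hydin, each with 3 and 11 reads, passed 2-fold with intervals from 0.959 to 20.3. Foxj1, the main factor of motile cilia, had 0 and 5 reads. Of 4 Hedgehog pathway genes with enough reads none passed 2-fold (median 0.11).

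The mitotic list had the lowest median of the 11 lists, -0.83. Besides Mki67 (log2 fold change -1.52), Bub1 (252 and 84 reads), Kif11 (475 and 171), Prc1 (654 and 247), Tpx2 (649 and 275) and Plk1 (950 and 412) passed 2-fold downwards. Tsg101 and Pdcd6ip, the partners of Cep55 above, are members of this list as well.

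**Figure D4:**
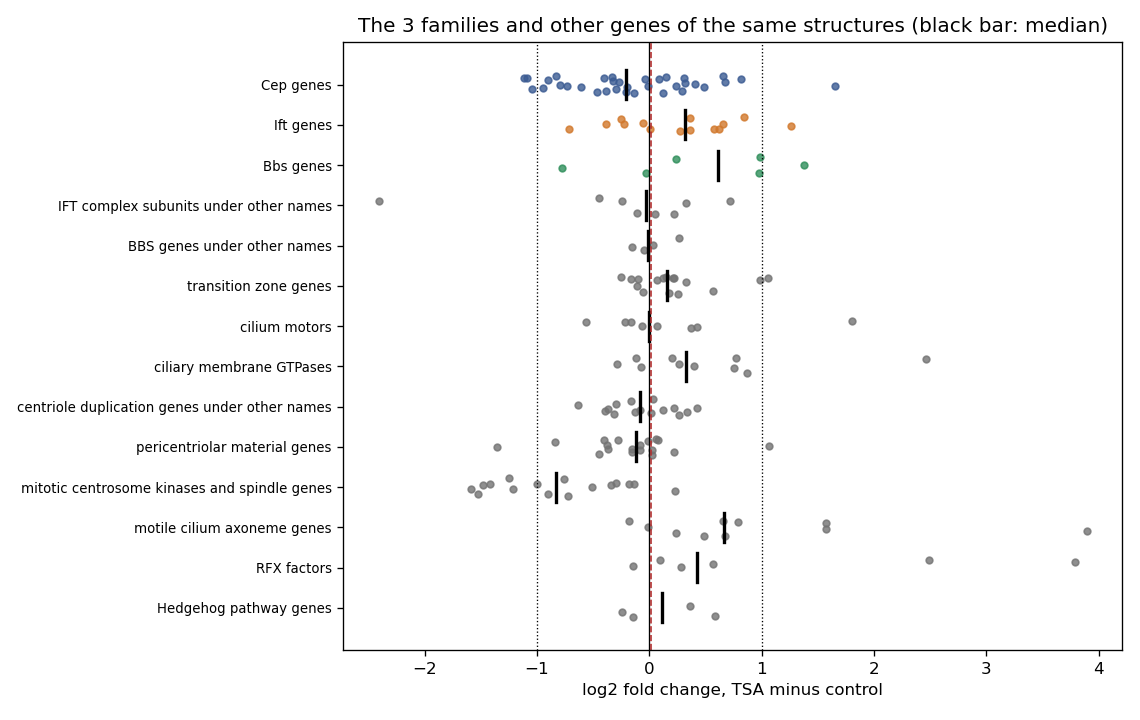
Log2 fold change (TSA minus control) of each gene with enough reads in the 3 families and in 11 lists of other centrosome, cilium, mitotic and Hedgehog genes; black bars are medians, dotted lines mark 2-fold and the red dashed line is the median of all genes compared (0.015). The median bar of the mitotic list lies at -0.83, and those of the Cep, Ift and Bbs genes at -0.21, 0.32 and 0.61.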

How the data were processed

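The 58 genes and all gene lists were chosen with earlier results of these data known. The authors made QuantSeq 3′ libraries, with 75-nt reads from 1 end, and used ExDEGA for the analysis; the submitters' processing notes name Bowtie2, bedtools and mm10, and the counting rule, annotation, use of strand and normalization method are not given in the sources used here. The authors deposited log2 values (log2 of a normalized count plus 1), 1 per gene symbol and library. Taken off the log2 scale, low values were multiples of 1.005 normalized counts per read (control) and 0.995 (TSA), and among genes with 1 to 300 reads 99.9% and 99.8% lay within 0.1 of a whole read. Control values just above 0 in 1940 rows were read as 0 reads. The floor for a gene at 0 was 3 reads, a CPM of 0.277 (control) and 0.288 (TSA). PCR copies could not be told from molecules, so intervals cover counting error only.

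No test was run, because each condition had 1 library. The named genes are all Ift and Bbs genes, Cep genes past 2-fold or beyond counting error, the 5 Cep genes with the most reads, Hdac6, Foxp3, Mki67 and listed genes past 2-fold; other names were chosen after their values were seen. Alternatives covered scaling (total reads, median of ratios), pseudocounts of 0.1 and 5, filters on reads and the threshold. Promoters came from RefSeq (GRCm38.p6) and positions from GENCODE M21. The values of 1 Cep gene, which is part of the counts, are not reported here or drawn by name. Steps were tested on simulated data. Python 3.11.15, numpy 2.4.6, scipy 1.17.1 and pandas 2.3.3 were used.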

Additional observations from a re-analysis of the deposited data

How the results depend on the processing

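No paired analysis was possible because the control and TSA groups hold a single library each, which also leaves nothing to drop in turn. The medians of the Cep and Ift genes kept their sign under every scaling, pseudocount and filter tried, from -0.21 to -0.14 and from 0.27 to 0.39. The median of the Bbs genes was 0.54 to 0.70 except when the filter asked for a mean count of 50, which left 3 genes (Bbs4, Bbs9 and Bbs12) and gave -0.031. The count of higher genes past 2-fold, 3, became 5 with total-read scaling, 4 with a pseudocount of 0.1 (Bbs10 added), 2 with a pseudocount of 5 and 2 with 10 reads in both libraries (each without Ift81), 4 with no filter (Cep112 added), 1 with a mean count of 50 required, 11 with a 1.5-fold threshold, and 1 when the whole 95% interval had to lie beyond 2-fold. The count of lower genes, 3, became 2 with total-read scaling (Cep76 lost), 4 with no filter (Cep126 added), 11 with the 1.5-fold threshold and 0 with the whole interval. Without the gene with the most reads, a check added after the data were seen, the summed fold became 1.02 (Ift) and 1.04 (Bbs). The medians of lists and level classes over genes with 10 reads in both libraries were added in the same way. All 54 single genes stayed within their 95% intervals under the other scalings and pseudocounts. Over all genes, 1400 higher and 383 lower past 2-fold became 2817 and 1200 with no filter, 524 and 223 with 10 reads required in each library, 278 and 141 with the mean count of 50, and 2279 and 1014 at 1.5-fold. Total-read scaling shifts the median of all genes from 0.015 to 0.085. Depth limits Cep112, Cep126, Bbs5 and Bbs7 most, and the values of Ift81, Bbs1 and Bbs2 rest on few reads.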
